A study of Homo sapiens with 6 samples.

Results

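The cornified envelope is the protein shell that keratinocytes lay down beneath the plasma membrane as they reach the end of differentiation. Its building starts with the plakins envoplakin and periplakin, and transglutaminases then bond these scaffolds and further precursors to each other. Corneodesmosomes hold the finished cells together. ΔNp63 is the p63 isoform of basal cells of stratified epithelia, where it is known for keeping the basal state and for its part in entry into differentiation.

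The values below are for 10 genes of this structure that lie outside the epidermal differentiation complex, the gene cluster that holds most envelope precursors. They were chosen by name and are the scaffolds PPL, EVPL and SCEL, the transglutaminases TGM1, TGM2, TGM3 and TGM5, and CSTA, CDSN and CNFN. All 10 were found by Ensembl gene ID among the 40488 genes of the deposited table, and 9 had enough counts to be tested. The cells were SCC90, an established line from an HPV16-positive oropharyngeal tumor. SCC90 cells transfected with anti-DeltaNp63 siRNA (siDNp63, 3 libraries) were compared with SCC90 cells transfected with scrambled siRNA (siCTRL, 3 libraries), and RNA was taken 72 h after transfection in both groups. The labels give an siRNA concentration of 10 nM, and the methods of the study give a higher one. All cells came from 1 line, and the control was a non-targeting siRNA rather than untreated cells. Nothing in the labels says that the replicates were separate cultures, so the p-values reflect the spread among 3 libraries per group, and that spread may be technical.

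The siRNA strands listed in the labels are shown because they describe the treatment.
Listed as sense: acgaggagccgttctaatc
Listed as antisense: acctggaaaacaatgcccaga
The strand listed as antisense was found as written, which is the orientation of the transcript, in 8 of 14 TP63 transcripts of the annotation. The strand listed as sense was found in none of them in either direction, so the listed strands do not fully define the treatment. Neither strand matched any of the 43 annotated transcripts of the 10 envelope genes in either direction.

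Library totals lay between 35716277 and 52598831 expected counts. The silenced gene, TP63, had 15520.1, 14474 and 15414 normalized counts in siDNp63 and 42319, 44204 and 43700.1 in siCTRL, a log2 fold change of −1.52 ± 0.04 (SE, edgeR adjusted p = 7.59e-07). Normalized counts are counts scaled between libraries by TMM. This value sums the ΔN and TA transcripts. Epithelial markers were abundant (CDH1 averaged 711 TPM in siDNp63 and 478 TPM in siCTRL), whereas the basal keratins KRT5 and KRT14 averaged under 10 TPM in both groups. TPM is a level corrected for transcript length and for the size of the library. Of 8 leukocyte markers, 3 were at 0 in every library (CD3D, MS4A1 and TYROBP), and the list summed to between 3.88 and 4.53 TPM in siDNp63 and between 6.18 and 7.15 TPM in siCTRL. Fibroblast markers summed to between 5.82 and 9.11 TPM in siDNp63 and between 8.72 and 10.8 TPM in siCTRL, with PDGFRB at 0. Endothelial markers summed to between 11.2 and 13.7 TPM in siDNp63 and between 2.56 and 3.06 TPM in siCTRL, with all 3 tested members (KDR, PECAM1 and VWF) higher and none of the 5 at 0. Their part in the results of the envelope genes was not tested. The siDNp63 replicate 1 library stood apart on the second principal component (35.0, against −22.7 and −20.6 for siDNp63 replicates 2 and 3 and between 1.74 and 4.18 for siCTRL).

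After ΔNp63 silencing the scaffold genes PPL and SCEL rose 2.84-fold and 2.82-fold, TGM1 rose 1.65-fold, and the other members tested did not pass the test. In all, 3 of the 9 members tested (33.3%) were higher in siDNp63 at an edgeR adjusted p under 0.05, where 18.4% of all 17257 genes tested were higher. No member was lower by this edgeR test, against 15.2% of all genes. At an unadjusted edgeR p under 0.05, 1 member was lower (TGM2), and the share of all genes at that threshold was not computed. At an adjusted p under 0.05, DESeq2 and limma-voom called 0 members lower. By the same adjusted threshold, edgeR called TGM2 lower with library size alone (adjusted p = 0.0495) and with at least 10 counts in every library (adjusted p = 0.0419). PPL and SCEL also passed a log2 fold change of 1, as did 2.35% of all genes in the higher direction, while no member passed it in the lower direction, where 1.71% of all genes did. The median log2 fold change was 0.21 over the 9 members and −0.02 over all genes. Normalized counts of the groups did not overlap for 5 members (PPL, SCEL, TGM1, TGM2 and CSTA), and for 49.4% of all genes. Scaling by library size alone turned the split of all calls from 3177 higher and 2626 lower genes to 2330 higher and 4117 lower, and the 3 members called higher stayed so. Without siDNp63 replicate 1, 4 members were higher (EVPL joined them) and 1 was lower (TGM2). Calls over all genes also became more numerous in that setting, with 3653 higher and 3187 lower. In these bulk libraries, more cells that express a gene and more RNA per cell cannot be told apart.

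**Figure D1:**
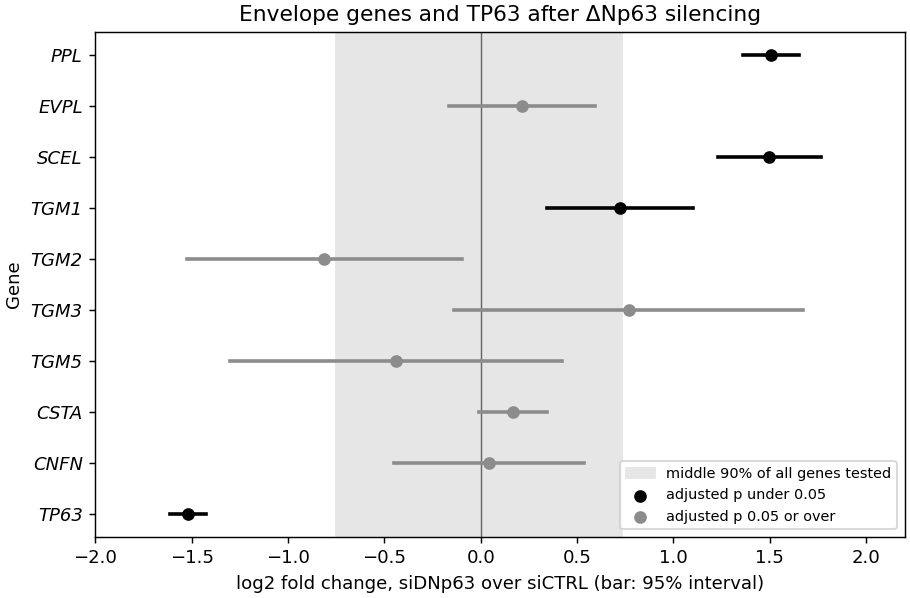
log2 fold change of the 9 members tested and of TP63, siDNp63 over siCTRL (points, edgeR; bars, 95% intervals; black, adjusted p under 0.05; shading, the middle 90% of all genes tested). PPL (1.50) and SCEL (1.50) lie far beyond the shading on the right and TP63 (−1.52) on the left. TGM1 (0.72), which was called, lies inside the shading near its right edge (0.73). TGM3 (0.77, right) and TGM2 (−0.81, left) lie just beyond the shading without a call, and the intervals of EVPL, TGM3, TGM5, CSTA and CNFN include 0.

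Levels per length placed CSTA first in both groups. In siDNp63 the order of mean TPM was CSTA (31.3), PPL (15.8), EVPL (9.65), SCEL (7.42), TGM1 (4.58) and CNFN (3.77), and the ranges of neighbours in this order did not overlap. In siCTRL the order was CSTA (29.4), EVPL (7.83), PPL (5.90), CNFN (3.85), TGM1 (3.24) and SCEL (2.81), where CNFN and TGM1 overlapped, as did TGM1 and SCEL. PPL therefore stood above EVPL in every siDNp63 library and below it in every siCTRL library. TGM3, TGM5 and TGM2 stayed below 0.5 TPM in all 6 libraries, under all other detected members, and their ranges overlapped among themselves. CDSN had no count in any library. The 10 genes together summed to 73.3 ± 3.05 TPM in siDNp63 and 53.8 ± 1.23 TPM in siCTRL (SD, n = 3 each). Of this difference of 19.4 TPM, PPL made up 50.7% and SCEL 23.7%.

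**Figure D2:**
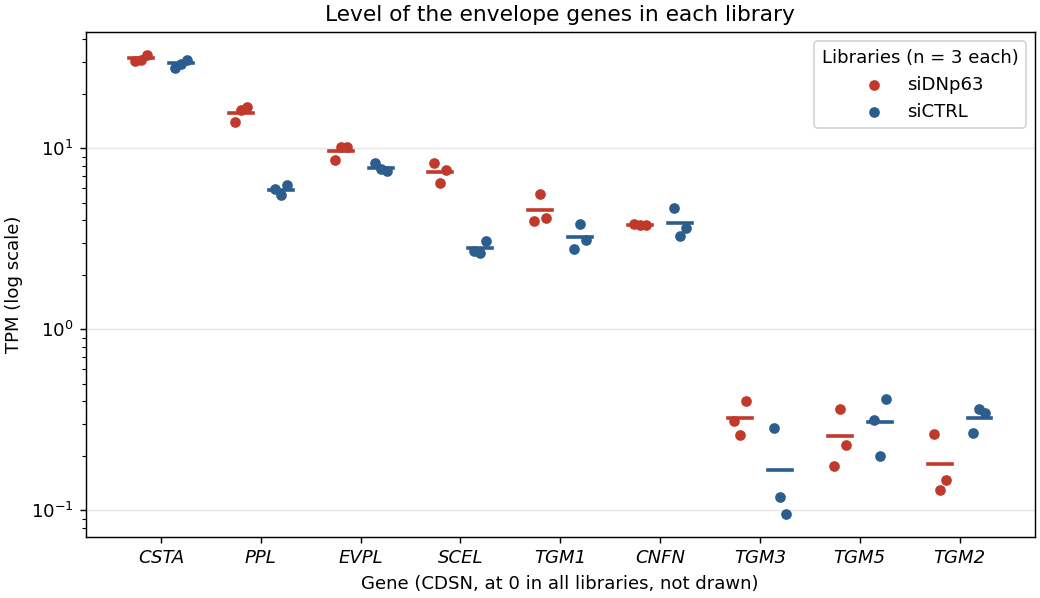
TPM of 9 members in each library on a log axis (siDNp63 red, siCTRL blue; points, libraries; lines, means of 3). PPL lies between 14.0 and 17.0 TPM in siDNp63 and between 5.53 and 6.24 TPM in siCTRL, SCEL separates likewise, and CSTA lies near 30 TPM in both groups.

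PPL (ENSG00000118898; chromosome 16, 4882507 to 4960741 of GRCh38, minus strand, 22 exons) encodes periplakin, a plakin that links the envelope to intermediate filaments and to the plasma membrane. Its normalized counts were 2434, 2775 and 2793 in siDNp63 replicates 1, 2 and 3, and 943, 952 and 927 in siCTRL replicates 1, 2 and 3. The lowest siDNp63 library was thus more than 2-fold above the highest siCTRL library. The means were 2668 ± 202 in siDNp63 and 941 ± 12.4 in siCTRL (SD, n = 3 each), which is 1.50 ± 0.06 on the log2 scale (SE, edgeR adjusted p = 3.80e-06). PPL ranked 66th by p among the 17257 genes. Its log2 fold change lay between 1.28 and 1.57 under all 17 alternative settings, with a highest adjusted p of 3.85e-04. Over the 6 libraries ASS1 (r = 0.9992) and PGAP4 (r = 0.9992) were among the 3 genes, of 13012 compared, whose log2 normalized level followed PPL most closely. These correlations are dominated by the difference between the groups, which all points of a group share.

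EVPL (ENSG00000167880; chromosome 17, 76004502 to 76027306 of GRCh38, minus strand, 22 exons) encodes envoplakin, the plakin that forms heterodimers with periplakin. Its normalized counts were 1001, 1573 and 1629.8 in siDNp63 replicates 1, 2 and 3, and 1236, 1202 and 1199 in siCTRL replicates 1, 2 and 3. The siDNp63 replicate 1 library lay below all siCTRL libraries and the other siDNp63 libraries lay above them, so the groups overlapped. The log2 fold change was 0.21 (95% interval −0.16 to 0.59) and did not pass the test (edgeR adjusted p = 0.356). Without siDNp63 replicate 1 it was 0.40 (edgeR adjusted p = 2.95e-04). In TPM the groups did not overlap, with 8.67, 10.1 and 10.1 TPM in siDNp63 and 8.32, 7.73 and 7.45 TPM in siCTRL.

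Counts and TPM of EVPL parted in siDNp63 replicate 1. The expected count per TPM, corrected for the library, gives the average length of the transcripts to which reads of a gene were assigned. For EVPL it was 70.6%, 93.5% and 100.1% of the siCTRL mean in siDNp63 replicates 1, 2 and 3, and 96.6%, 100.3% and 103.1% in siCTRL replicates 1, 2 and 3. The annotation holds 5 EVPL transcripts of 545 to 6592 bases. Among the 13057 genes that reached 50 counts in each library, 225 (1.72%) had a shortening as large or larger in siDNp63 replicate 1 relative to the other 5 libraries. With this length as an offset in edgeR, an alternative chosen after seeing the data, EVPL was called higher (log2 fold change 0.38, adjusted p = 0.0143), while limma on log2(TPM + 1) gave an adjusted p = 0.0941. The EVPL counts were not whole numbers in any library, as happens where reads are divided by estimate between genes. Whether the difference between replicate 1 and the other libraries lies in the cells or in the assignment of reads was not tested.

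The ratio of PPL to EVPL in TPM was 1.62, 1.60 and 1.68 in siDNp63 replicates 1, 2 and 3, and 0.713, 0.715 and 0.837 in siCTRL replicates 1, 2 and 3. Its mean was 2.16-fold higher in siDNp63, and every siDNp63 library was above every siCTRL library (two-sided exact permutation test, p = 0.10, the smallest that 3 against 3 libraries allow). From normalized counts the fold was 2.54.

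**Figure D3:**
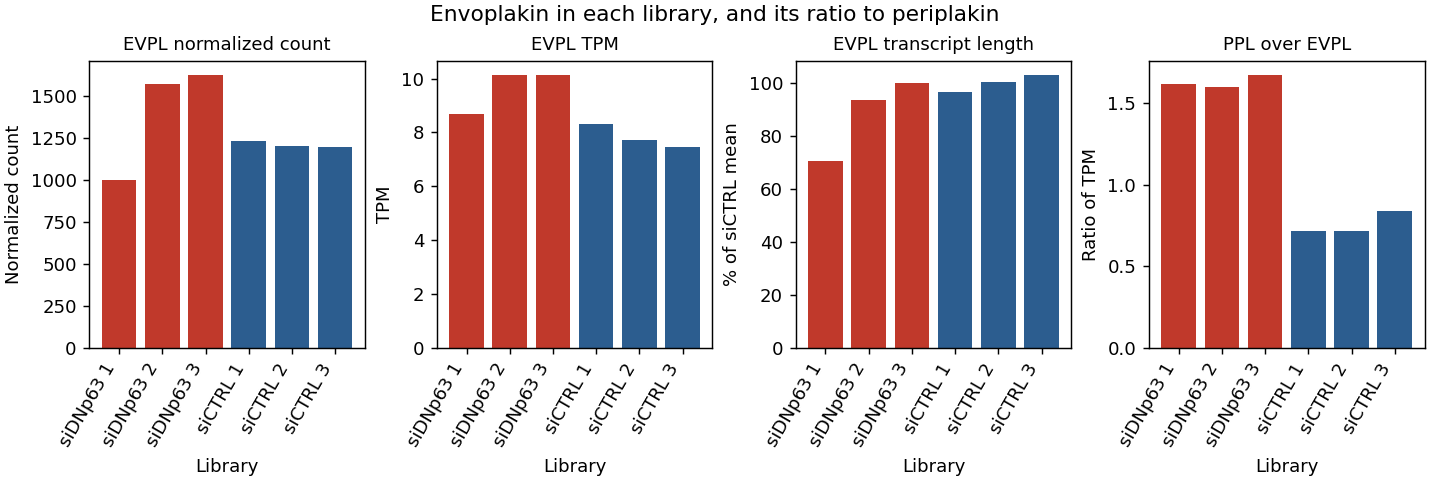
EVPL normalized count, EVPL TPM, average EVPL transcript length (percent of the siCTRL mean) and the PPL to EVPL ratio of TPM in each of the 6 libraries (bars; siDNp63 red, siCTRL blue). The siDNp63 replicate 1 library has the lowest EVPL count (1001) and the shortest average length (70.6%), while its PPL to EVPL ratio (1.62) lies with the other siDNp63 libraries.

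SCEL (ENSG00000136155; chromosome 13, 77535674 to 77645263 of GRCh38, plus strand, 33 exons) encodes sciellin, a precursor of the envelope of stratified epithelia. Its normalized counts were 701, 579.5 and 650.4 in siDNp63 replicates 1, 2 and 3, and 204, 225 and 256 in siCTRL replicates 1, 2 and 3. All siDNp63 libraries were above all siCTRL libraries. The log2 fold change was 1.50 ± 0.11 (SE, edgeR adjusted p = 5.42e-05), and it stayed between 1.14 and 1.58 under the 17 alternatives. SCEL shares 225 exon bases with genes on the opposite strand that are not rows of the table. The methods give default options for the quantification, which set no strand, so reads of genes that overlap on opposite strands cannot be told apart here.

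Upstream sequence is shown for SCEL, which rose, and for CNFN and TGM3, which did not pass the test, so that the windows can be compared. Each run is the 250 bases before the RefSeq start of the gene (GRCh38.p14), 5′ to 3′ on the strand of the gene. Of the 10 members, 5 had an entry in the promoter table (SCEL, TGM3, TGM5, CDSN and CNFN). Capitals mark TGANTCA, the letters of an AP-1 site, in SCEL, TATAAA, the letters of a TATA box, in TGM3, and CCGCCC, the letters of a GC box, in CNFN, each searched on both strands. In TGM3 the first capitals hold 2 overlapping matches.
SCEL chr13:77535456-77535705: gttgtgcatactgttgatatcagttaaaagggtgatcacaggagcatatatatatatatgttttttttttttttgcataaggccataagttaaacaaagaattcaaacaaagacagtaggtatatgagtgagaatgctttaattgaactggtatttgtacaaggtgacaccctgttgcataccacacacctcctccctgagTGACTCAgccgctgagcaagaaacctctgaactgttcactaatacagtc
CNFN chr19:42390298-42390547: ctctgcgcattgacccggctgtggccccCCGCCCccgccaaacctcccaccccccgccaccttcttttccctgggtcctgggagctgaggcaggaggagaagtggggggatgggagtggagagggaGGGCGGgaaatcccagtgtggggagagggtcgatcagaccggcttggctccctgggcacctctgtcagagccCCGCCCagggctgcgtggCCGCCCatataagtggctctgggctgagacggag
TGM3 chr20:2295751-2296000: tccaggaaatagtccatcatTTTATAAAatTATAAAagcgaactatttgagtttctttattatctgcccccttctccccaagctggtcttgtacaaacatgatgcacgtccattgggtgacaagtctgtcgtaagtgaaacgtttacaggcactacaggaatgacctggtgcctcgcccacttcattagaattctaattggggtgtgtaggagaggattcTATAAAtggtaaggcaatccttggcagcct
The SCEL window held 1 match to TGANTCA, from 49 to 43 bases before the start. Of all 35116 promoter windows of this length, 6.57% held this motif, and none of the other 4 members with an entry did. TATAAA occurred 4 times in the TGM3 window and in 10.7% of all windows, and CCGCCC occurred 4 times in the CNFN window and in 42.6% of all windows. The spacing of a p63 site (a pair of C and G cores set apart as in its consensus) was found 2 times in TGM3 and 5 times in CDSN, in none of SCEL, TGM5 and CNFN, and in 68.6% of all windows. The SCEL window was 37.6% G and C, against 68.4% in CNFN and 42.4% in TGM3. These matches describe the letters only.

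TGM1 (ENSG00000092295; chromosome 14, 24249114 to 24264432 of GRCh38, minus strand, 15 exons) encodes the membrane-anchored transglutaminase of keratinocytes, whose loss causes lamellar ichthyosis. Its normalized counts were 148, 194 and 163 in siDNp63 replicates 1, 2 and 3, and 85.9, 109 and 113 in siCTRL replicates 1, 2 and 3. The groups did not overlap. TGM1 rose by 0.72 ± 0.16 on the log2 scale (SE, 95% interval 0.35 to 1.10, edgeR adjusted p = 0.0108). In TPM the rise was smaller, with 3.99, 5.59 and 4.14 TPM in siDNp63 and 2.79, 3.82 and 3.11 TPM in siCTRL. The call ended in limma on log2(TPM + 1) (adjusted p = 0.108) and in edgeR with transcript lengths (adjusted p = 0.0774), and it held without any single library.

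The other transglutaminases were close to the detection limit, with expected counts of 6 to 23 per library. TGM2 (ENSG00000198959, chromosome 20), the transglutaminase found in most tissues, had normalized counts of 17.9, 10.3 and 11.4 in siDNp63 and 20.0, 23.9 and 24.8 in siCTRL. All siDNp63 values were below all siCTRL values, yet the log2 fold change of −0.81 (95% interval −1.52 to −0.10) did not pass the test after adjustment (edgeR adjusted p = 0.0784). Without siDNp63 replicate 1 it was −1.06 (edgeR adjusted p = 0.0339). TGM2 shares 396 exon bases with RPRD1B on the opposite strand, which had 1768 to 2738 counts per library. As for EVPL, the deposited counts of TGM2 were not whole numbers in any library. Counts that were not whole occurred for 4 members (PPL, EVPL, TGM1 and TGM2).

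TGM3 (ENSG00000125780, chromosome 20), the epidermal transglutaminase that is activated by cleavage, had normalized counts of 23.0, 14.6 and 15.3 in siDNp63 and 14.7, 8.32 and 6.76 in siCTRL. The groups overlapped by a narrow margin, and the log2 fold change of 0.77 had an interval of −0.14 to 1.68 (edgeR adjusted p = 0.174). TGM3 reached the level needed for testing in all 3 siDNp63 libraries and in 1 siCTRL library. TGM5 (ENSG00000104055, chromosome 15), a transglutaminase of the upper epidermis, had normalized counts of 10.2, 19.7 and 11.4 in siDNp63 and 19.1, 13.5 and 24.8 in siCTRL, which overlapped (log2 fold change −0.44, edgeR adjusted p = 0.412). The interval of TGM5 was −1.30 to 0.42, so at this depth neither a fall by 1.30 nor a rise of 0.42 on the log2 scale could be set apart from no change. TGM5 reached the level needed for testing in 2 siDNp63 libraries and in all 3 siCTRL libraries.

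TGM1 made up 84.2%, 88.1% and 84.2% of the summed TPM of the 4 transglutaminases in siDNp63 replicates 1, 2 and 3, and 76.2%, 84.9% and 78.5% in siCTRL replicates 1, 2 and 3. The shares overlapped between the groups (two-sided exact permutation test, p = 0.30). The summed TPM of the 4 enzymes was 4.74, 6.35 and 4.92 in siDNp63 and 3.66, 4.50 and 3.96 in siCTRL (two-sided exact permutation test, p = 0.10, the smallest possible here). The related genes TGM4, TGM6, TGM7, F13A1 and EPB42 were too low to be tested, and TGM7 and EPB42 had no count.

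CSTA (ENSG00000121552; chromosome 3, 122325248 to 122341969 of GRCh38, plus strand, 3 exons) encodes cystatin A, a cysteine protease inhibitor that is also bound into the envelope. It had the highest TPM of the members in every library. Its normalized counts were 503, 518 and 530.2 in siDNp63 replicates 1, 2 and 3, and 434, 461 and 488 in siCTRL replicates 1, 2 and 3. The groups did not overlap, but the log2 fold change of 0.17 (95% interval −0.01 to 0.35) did not pass the test (edgeR adjusted p = 0.135). In TPM the groups overlapped, with 30.4, 30.9 and 32.7 TPM in siDNp63 and 27.9, 29.4 and 30.9 TPM in siCTRL. The interval leaves room for a rise of at most 0.35 on the log2 scale, in contrast to the intervals of PPL and SCEL, which begin at 1.36 and 1.23.

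CNFN (ENSG00000105427; chromosome 19, 42387019 to 42390297 of GRCh38, minus strand, 4 exons) encodes cornifelin, an envelope component. It had normalized counts of 38.4, 38.5 and 37.2 in siDNp63 and 44.2, 31.2 and 34.9 in siCTRL. The siDNp63 values lay inside the siCTRL range, and the log2 fold change was 0.04 (95% interval −0.45 to 0.54, edgeR adjusted p = 0.899). CDSN (ENSG00000204539; chromosome 6, 31115087 to 31120446 of GRCh38, minus strand, 2 exons) encodes corneodesmosin, the adhesive glycoprotein of corneodesmosomes. It had 0 counts in all 6 libraries, which allows up to 3 counts per library, or 0.0570 to 0.0840 CPM. This limit covers counting error only and applies to this gene ID. The 4950 IDs of the table without a match in the name table were not searched for further copies of the gene.

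Other genes of the envelope were taken from lists written for this report, and the members of each list that are named are the 3 with the highest TPM plus, chosen after their values were seen, those that make up a small count. The shares of each list called are to be read against 18.4% higher and 15.2% lower over all genes. Of 5 other plakins, MACF1 rose (log2 fold change 0.32, edgeR adjusted p = 0.00186) and DST fell (−0.36, edgeR adjusted p = 0.00546). DSP, which encodes desmoplakin of desmosomes, was at −0.09 (edgeR adjusted p = 0.0689). The MACF1 call ended with transcript lengths in edgeR (adjusted p = 0.107) and in limma on TPM. The DST call ended at an adjusted p under 0.005. DSP was called lower without siDNp63 replicate 1 (−0.11, edgeR adjusted p = 0.0156) and with library size alone (−0.18, edgeR adjusted p = 0.00185). The same held with at least 10 counts in every library (−0.11, edgeR adjusted p = 0.0256). DSP was also called lower in limma on log2(TPM + 1) (−0.17, limma adjusted p = 0.0220) and log2(TPM + 0.1) (−0.17, limma adjusted p = 0.0236). The median log2 fold change of the 5 other plakins was −0.09, against 1.50 for PPL and 0.21 for EVPL, which was not called.

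Of 10 tested plakin partners and further transglutaminase substrates, 9 rose (adjusted p of edgeR under 0.05). That count was 7 in limma on TPM with either pseudocount and at an adjusted p under 0.005, and 8 without siCTRL replicate 1. KRT10, among the 9, had a lower mean TPM in siDNp63 (61.0) than in siCTRL (64.5). PPHLN1, a partner of periplakin, did not pass (0.06, edgeR adjusted p = 0.327). Those with the highest level were S100A11 (log2 fold change 0.42), ANXA1 (1.04) and S100A10 (0.96). ANXA1 encodes annexin A1, which binds membranes in the presence of calcium. The median over the list was 0.85. Of 10 tested precursors of the epidermal differentiation complex, 5 rose, namely SPRR3 (0.90), SPRR1B (1.24), IVL (1.04), SPRR2E (1.37) and TCHH (0.33), and 5 did not pass. IVL encodes involucrin, the classic early precursor, and the small proline-rich proteins act as bridges between other precursors and are close relatives that can share reads. Those that did not pass lay on either side of 0, with SPRR2D at 0.29, RPTN at −0.34, FLG at −0.44 and HRNR at −0.72 (edgeR adjusted p = 0.0637). SPRR1A was at 1.14 (edgeR adjusted p = 0.205), and without siDNp63 replicate 1 it passed (1.60, edgeR adjusted p = 0.00614). The count of 5 was 3 without siDNp63 replicate 3, siCTRL replicate 2 or siCTRL replicate 3, and 6 without siDNp63 replicate 1. With library size alone, and with at least 10 counts in every library, 1 precursor was called lower. A further 13 genes of this list, among them LORICRIN and FLG2, were too low to be tested.

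**Figure D4:**
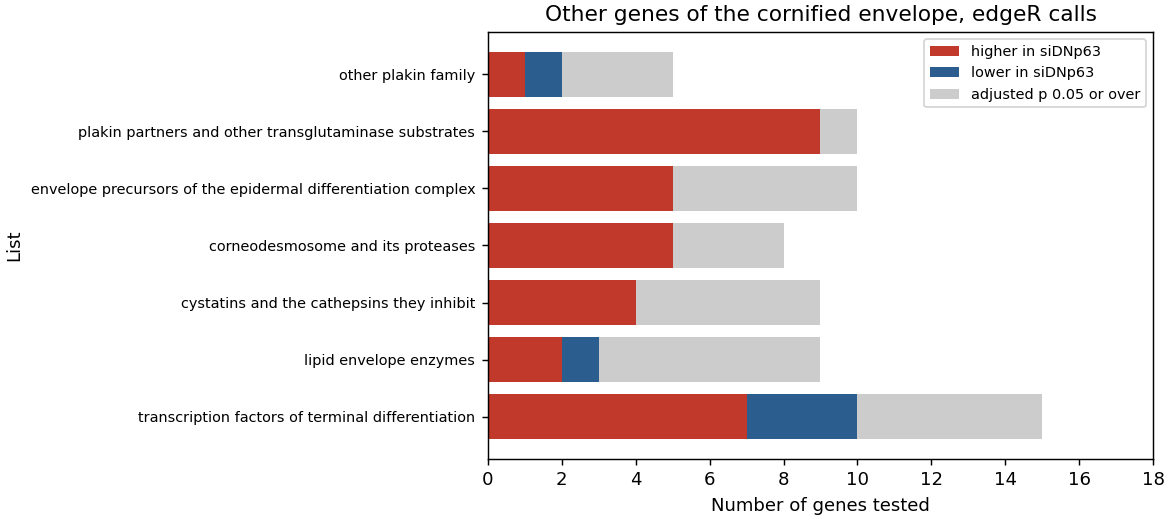
Number of genes of 7 lists of envelope biology that were higher (red), lower (blue) or not called (grey) in siDNp63 against siCTRL at an edgeR adjusted p under 0.05. Of the plakin partners and substrates 9 of 10 are higher, while the other plakins hold 1 higher and 1 lower gene of 5.

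Of 8 tested genes of corneodesmosomes and their proteases, 5 rose, namely the desmosomal cadherins DSC2 (log2 fold change 0.70), DSG3 (0.38), DSG1 (1.54) and DSC1 (0.74) and the protease inhibitor SPINK5 (0.98). The plaque proteins PKP1 (0.08, edgeR adjusted p = 0.243) and JUP (0.22, edgeR adjusted p = 0.231) did not pass, but both did without siDNp63 replicate 1 (0.13 and 0.38, edgeR adjusted p = 0.00445 and 8.03e-05), which made the count 7. The count was 4 in DESeq2, with library size alone, with no filter on low counts and in limma on TPM with either pseudocount. It was also 4 without siDNp63 replicate 2, siCTRL replicate 1 or siCTRL replicate 3, and 3 at an adjusted p under 0.005. KLK5, a protease that cleaves corneodesmosin, had no count. Of 9 tested cystatins and cathepsins, 4 rose, namely CSTB (0.31), the closest relative of CSTA, and the lysosomal proteases CTSC (0.69), CTSV (0.76) and CTSZ (0.22). CTSB, a cathepsin that cystatins inhibit, was at 0.04 (edgeR adjusted p = 0.480).

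Of 9 tested enzymes that make or process the lipids of the envelope, SMPD1 (0.65) and UGCG (0.51), which act on sphingomyelin and glucosylceramide, rose and CERS3 (−2.20, edgeR adjusted p = 8.98e-04), the ceramide synthase for the very long acyl chains of the epidermis, fell. These shares (22.2% higher and 11.1% lower) were near those over all genes. Of 15 transcription factors of terminal differentiation, 7 rose (46.7%) and 3 fell (20.0%, near the 15.2% over all genes). In 10 of the 17 alternatives, 5 of them with a single library left out, 2 fell. Those with the highest level were ELF3 (1.26), GRHL3 (1.55) and KLF4 (1.22), all higher. Among those that fell were ZNF750 (−0.68) and MAF (−0.24), which are known to promote late epidermal differentiation.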

How the data were processed

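RNA of 6 SCC90 libraries was sequenced from a single end after poly(A) selection with a stranded kit. Per the submitters' processing notes, bcl2fastq 2.17.1.14, kallisto 0.46.2 and the build hg38 were used. The methods state default options for kallisto, which set no strand, and the annotation release was not given in the sources used here. In the deposited table, the expected counts are gene sums of kallisto estimates, not scaled by the authors between libraries, and the deposited TPM are the authors' length-normalized values. Expected counts were rounded to whole numbers. The filterByExpr function of edgeR 4.0.16, at a minimum count of 10, kept 17257 genes, which were scaled by TMM and fitted by the quasi-likelihood test with the group as the only term on R 4.3.3, with Benjamini-Hochberg adjustment over all genes. The standard error is the log2 fold change divided by the square root of F. The fit was also run on simulated counts with known changes. The outcome of that run is not reported here and lends no support to the calls. Coordinates and transcripts are from GENCODE on GRCh38, promoters from RefSeq on GRCh38.p14, and 35538 of 40488 IDs matched the name table. Alternatives were DESeq2 1.42.0, limma 3.58.1 (voom, and TPM with a pseudocount of 1 or 0.1), other scalings and filters, an adjusted p of 0.005, a replicate block, each library left out and, chosen after seeing the data, transcript lengths. Named were all members, TP63, the 3 genes of each list with the highest mean TPM and the 3 genes most correlated with the member of smallest p, with exceptions said in the text and some items not reported here. The members and lists were chosen with earlier results of these data known, and the motifs after the windows were seen.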

Additional observations from a re-analysis of the deposited data

How the results depend on the processing

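The PPL, SCEL and TP63 calls held under all 17 alternatives run, and so did the absence of a call for TGM3, TGM5 (16 alternatives each), CSTA and CNFN. TGM1 lost its call in limma on log2(TPM + 1) (0.39) and log2(TPM + 0.1) (0.48), at an adjusted p of 0.005 (0.72) and with transcript lengths in edgeR (0.58). EVPL gained a call with transcript lengths (0.38). TGM2 gained one with library size alone (−0.90) and with at least 10 counts in every library (−0.83), which made the number of lower members 1. CNFN changed sign without a call with library size alone (−0.044) and in limma on TPM (−0.014 and −0.015). With single libraries left out the log2 fold change was 0.094 to 0.40 for EVPL, −1.06 to −0.65 for TGM2 and −0.067 to 0.20 for CNFN, the number of lower members 0 to 1 and the PPL to EVPL fold 2.10 to 2.28. That fold was 2.54 from normalized counts. Of genes that are not members, PKP1 (−0.0047) and CTSB (−0.041) changed sign with library size alone, and CTSB also in limma on TPM (−0.017 with either pseudocount), without a call. Over all genes, 4117 were lower with library size alone, 1668 and 1678 higher in limma on log2(TPM + 1) and log2(TPM + 0.1), 1767 higher and 1137 lower at an adjusted p of 0.005, and 1668 lower with transcript lengths. The causes were not tested. Deviations of libraries with the same replicate number correlated at −0.016, 0.016 and 0.029, and 3 of the 6 libraries correlated best with their own number. With 3 libraries per group these values cannot decide whether the numbers pair the libraries. With a replicate block, 2777 genes were higher and 2175 lower, and the members called were the same number (3 higher, 0 lower). Counts of 6 to 23 limit TGM2, TGM3 and TGM5.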

Other observations

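KRT10, a suprabasal keratin in the list of transglutaminase substrates, had a log2 fold change of 0.55 in counts (edgeR adjusted p = 4.67e-04), while its mean TPM was 61.0 in siDNp63 and 64.5 in siCTRL. PSORS1C1, which shares 2394 exon bases with CDSN on the opposite strand, had 15, 17 and 14 counts in siDNp63 and 8, 9 and 0 counts in siCTRL (log2 fold change 1.45, edgeR adjusted p = 0.139). ENSG00000286022, which shares 2553 exon bases with TGM3 on the same strand, had 0 counts in all 6 libraries.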
